A study of Mus musculus with 12 samples.

Results

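The genes of semaphorins, plexins and neuropilins were examined for BRG1 binding in wild-type cardiac precursors (CPs). The 31 genes were taken from a list of names, by family and by no measured value of theirs, though with earlier results of these data known, and are 31 of 22380 protein-coding genes in the annotation. They hold 7 secreted class 3 semaphorins, 13 membrane semaphorins of classes 4 to 7, 7 plexins, 2 neuropilins and 2 genes of proteins with a plexin-like domain. For each gene, listed BRG1 regions were counted at the promoter (within 1 kb on either side of an annotated transcription start site, TSS), in the gene body away from any of its promoters, and within 100 kb of the gene. The whole list had 4791 rows that named 3473 distinct regions, of which 22 lay within 100 kb of the 31 genes. What the repeated rows stand for is not stated in the sources used here. Since the number of distinct regions is also the number of sites that the paper gives for cardiomyocytes, it is unsure whether the distinct rows stand for CPs alone, and every count below rests on taking them as regions of CPs.

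ChIPseq recovers and sequences the DNA that is crosslinked to a protein, here BRG1. The list came from wild-type CPs differentiated from W4/129S6 mouse embryonic stem cells of passage 15 to 20, by way of embryoid bodies treated with VEGF, Activin and BMP4 and then FGFs, and 2 BRG1 ChIP libraries and 1 input DNA library stand behind it. The cells were crosslinked with disuccinimidyl glutarate and formaldehyde, their chromatin was cut with MNase, and an anti-BRG1 antibody was used. The other 9 libraries of the series, of CPs without BAF170 and of cardiomyocytes, were not analysed here. Because the list is a single one that gives positions only, no value here has an error between replicates, the depth is unknown, and a locus without a region may be unbound or below the threshold of the authors. Such positions do not measure expression, and the CP label could be set only against positions: of 8 cardiac precursor markers, 6 had a region within 100 kb, against 1 of 4 pluripotency markers, 1 of 4 endothelial markers, 2 of 4 markers of neural crest and neurons, and 0 of 3 endoderm markers. Of all protein-coding genes, 40.3% had a region within 100 kb. Among genes of the same promoter CpG count the share was 48.9% for the cardiac precursor markers and 43.8% for the pluripotency markers. It was 37.4% for the endothelial markers, 50.9% for those of neural crest and neurons, and 45.3% for those of endoderm. The Wilson interval of the cardiac precursor share, for counting error only, was 40.9 to 92.9% and held its background of 48.9%. The intervals of the other marker sets also held their backgrounds, so that these few markers cannot settle the CP label. At the promoter, 1 of the 8 cardiac precursor markers (12.5%) had a region, against 14.3% for the same CpG count.

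Semaphorins are secreted or membrane-bound guidance cues that steer axons, endothelial cells and migrating neural crest. Plexins are their receptors, and act on small GTPases through an intracellular GAP domain, whereas neuropilins are co-receptors that most class 3 semaphorins need in order to signal through plexins. In the embryonic heart, Sema3c and its receptors guide cardiac neural crest into the outflow tract, Sema3d takes part in the patterning of pulmonary veins, and Sema6d acts through Plxna1 in the growth of the ventricular wall. BRG1 is an ATPase of BAF complexes, which slide or evict nucleosomes.

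The regions of these genes were of contrasting composition. All 12 at the members' promoters were CpG-rich, as were those at promoters of neighbouring genes, while 4 of the 5 regions at no protein-coding promoter were CpG-poor. The following sequences show 4 promoter regions and these 4 CpG-poor regions. They were read from the + strand of mm9 and are written 5′ to 3′, with each CpG dinucleotide in capitals. A stretch of at most 300 bases free of annotated UTR sequence is shown for each region. The Plxna2 promoter stretch had 25 CpGs in 214 bases, while the region upstream of the same gene had 0 in 160 bases.
Sema3f promoter, chr9:107611956-107612255: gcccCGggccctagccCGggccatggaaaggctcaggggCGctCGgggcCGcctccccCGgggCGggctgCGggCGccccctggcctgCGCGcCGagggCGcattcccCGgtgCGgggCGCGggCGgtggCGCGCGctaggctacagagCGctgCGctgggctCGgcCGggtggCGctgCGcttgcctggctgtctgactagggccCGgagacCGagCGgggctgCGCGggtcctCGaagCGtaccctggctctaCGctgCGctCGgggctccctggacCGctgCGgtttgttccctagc
Sema6d promoter, chr2:124435679-124435978: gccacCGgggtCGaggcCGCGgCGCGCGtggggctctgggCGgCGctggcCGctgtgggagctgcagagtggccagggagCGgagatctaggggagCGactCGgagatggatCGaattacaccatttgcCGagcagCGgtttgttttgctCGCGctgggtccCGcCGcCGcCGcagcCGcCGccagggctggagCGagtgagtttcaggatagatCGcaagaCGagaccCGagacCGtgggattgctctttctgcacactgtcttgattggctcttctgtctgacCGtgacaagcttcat
Plxna2 promoter, chr1:196446592-196446805: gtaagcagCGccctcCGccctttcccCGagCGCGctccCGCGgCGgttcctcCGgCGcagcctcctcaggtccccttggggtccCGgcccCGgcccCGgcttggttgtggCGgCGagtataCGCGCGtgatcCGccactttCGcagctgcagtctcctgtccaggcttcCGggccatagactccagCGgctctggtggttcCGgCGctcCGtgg
Plxnc1 promoter, chr10:94406986-94407285: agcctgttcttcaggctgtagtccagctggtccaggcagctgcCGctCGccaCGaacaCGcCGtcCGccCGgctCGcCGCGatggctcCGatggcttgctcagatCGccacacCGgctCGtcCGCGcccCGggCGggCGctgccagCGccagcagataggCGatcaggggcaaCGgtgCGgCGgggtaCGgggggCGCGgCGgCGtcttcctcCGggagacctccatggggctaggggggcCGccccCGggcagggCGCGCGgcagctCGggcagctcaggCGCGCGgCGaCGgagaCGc
Plxna2 upstream, chr1:196436866-196437025: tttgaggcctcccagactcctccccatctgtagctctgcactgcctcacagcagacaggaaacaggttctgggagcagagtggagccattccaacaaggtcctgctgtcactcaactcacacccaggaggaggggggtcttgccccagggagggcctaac
Plxna4 intron, chr6:32480886-32481185: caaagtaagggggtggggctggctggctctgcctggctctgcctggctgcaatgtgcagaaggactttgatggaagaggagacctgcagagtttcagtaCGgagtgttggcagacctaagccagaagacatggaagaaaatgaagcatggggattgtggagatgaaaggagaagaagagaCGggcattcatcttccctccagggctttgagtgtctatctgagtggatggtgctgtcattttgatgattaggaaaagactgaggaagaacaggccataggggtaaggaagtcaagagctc
Sema5b intron, chr16:35597216-35597515: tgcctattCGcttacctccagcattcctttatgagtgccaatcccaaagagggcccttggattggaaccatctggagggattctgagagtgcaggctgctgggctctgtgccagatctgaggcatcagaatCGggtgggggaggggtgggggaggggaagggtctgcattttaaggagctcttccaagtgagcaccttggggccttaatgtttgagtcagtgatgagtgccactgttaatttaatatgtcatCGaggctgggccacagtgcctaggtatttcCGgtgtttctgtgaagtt
Nrp2 downstream, chr1:62907546-62907725: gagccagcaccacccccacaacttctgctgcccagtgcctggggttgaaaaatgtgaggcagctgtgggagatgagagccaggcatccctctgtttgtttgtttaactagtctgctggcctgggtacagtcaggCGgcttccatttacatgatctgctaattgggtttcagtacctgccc

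At the promoters, 12 of the 31 genes had a BRG1 region, namely Sema3c, Sema3f, Sema4c, Sema4d, Sema4g, Sema5b, Sema6d, Plxna2, Plxna4, Plxnb1, Plxnb2 and Plxnc1. Plexins were the group with most of its members on that list (5 of 7), followed by the membrane semaphorins (5 of 13) and the class 3 semaphorins (2 of 7). Neither neuropilin and neither Plxdc gene had a region at its promoter. The share of 38.7% (95% Wilson interval 23.7 to 56.2, counting error only) stood beside 11.9% of all protein-coding genes. The 31 genes have CpG-rich promoters, with a median of 110 CpGs within 1 kb of the TSS against 66 for other protein-coding genes, where a gene with several TSSs was read at the one with most CpGs. Other protein-coding genes within 5 CpGs of each member had a promoter region in 24.1% of cases. This value is inside the interval of the members, but just above its lower bound. Genes are not replicates of a condition, so that no test was made between these shares.

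**Figure D1:**
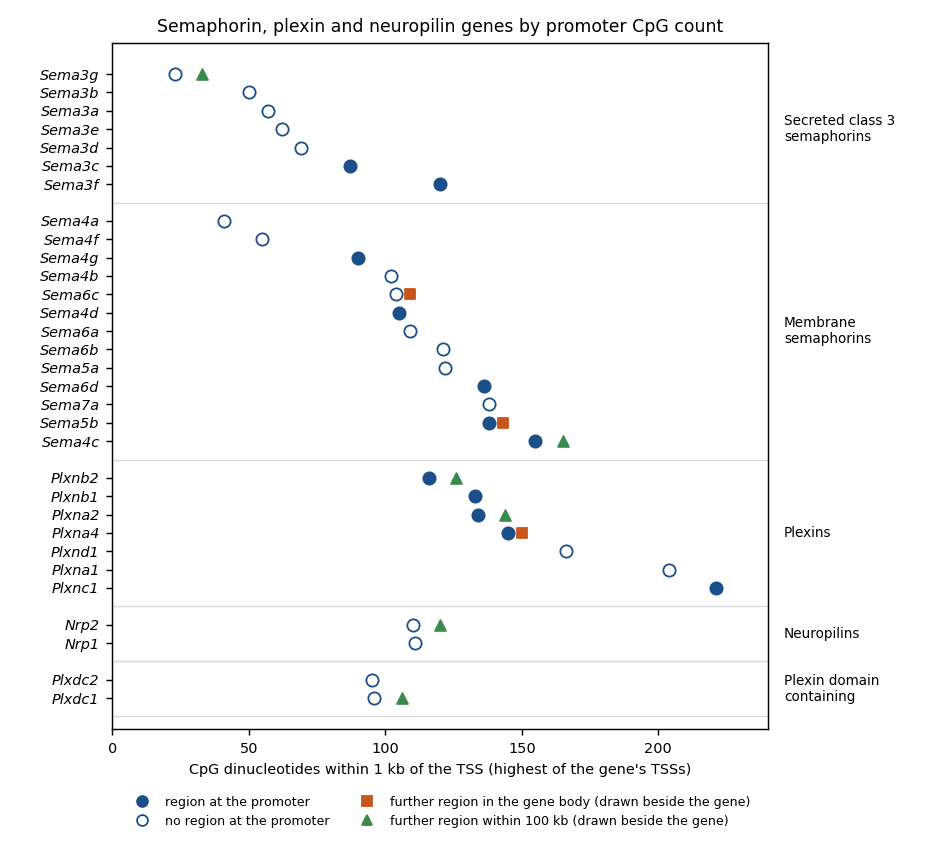
Each of the 31 genes is placed by the number of CpGs within 1 kb of its TSS (x axis) and grouped by role (y axis), where filled circles have a BRG1 region at the promoter, open circles do not, and a square or triangle beside a gene marks a further region in its body or within 100 kb. The 12 filled circles lie between 87 and 221 CpGs, and no gene under 87 CpGs has one.

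Within the list, genes with a promoter region had a median of 134 CpGs (87 to 221), and genes without one a median of 102 (23 to 204). Of the 6 members in the lower quartiles of CpG count (0 to 66), none had a promoter region, as was the case for nearly all other genes of that range (0.0531% in the lowest quartile and 1.63% in the next). In the quartile from 67 to 103 CpGs, Sema3c and Sema4g had a promoter region among 6 members (33.3%, against 11.1% of other genes). In the highest quartile, from 104 to 323 CpGs, 10 of 19 members had one (52.6%, against 35.2%). No test was made on these shares, which rest on few genes. The 9 members of that quartile without a promoter region were Sema5a, Sema6a, Sema6b, Sema6c, Sema7a, Plxna1, Plxnd1, Nrp1 and Nrp2. Plxna1, the receptor of Sema6d in the heart, had 204 CpGs, and 59.0% of other genes of its CpG count had a region where it had none. Genes with a promoter region were also longer (median 108 kb, from 9.71 to 578) than genes without (46.3 kb, from 11.6 to 477), although both ranges overlapped widely.

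**Figure D2:**
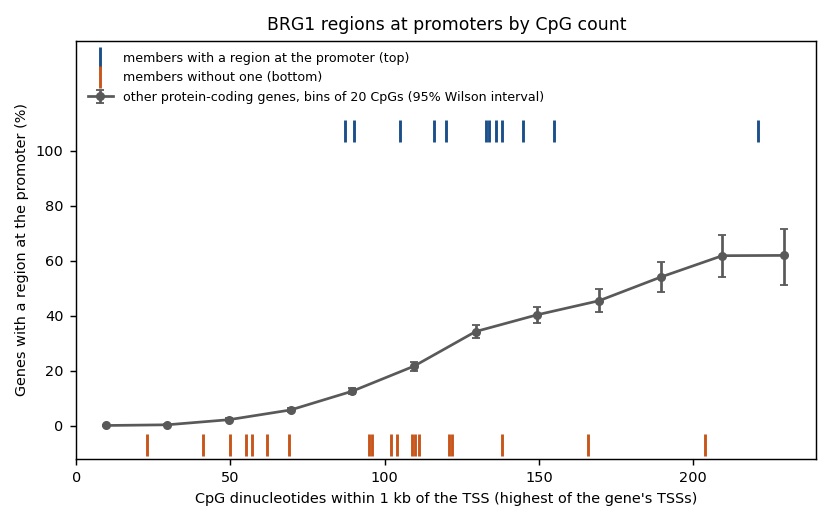
The share of other protein-coding genes with a BRG1 region at the promoter (y axis, percent) is drawn against promoter CpG count in bins of 20 (x axis), with 95% Wilson intervals, and ticks at the top mark the 12 members with such a region and ticks at the bottom the 19 without. The share of other genes goes from 0.0236% in the bin from 0 to 19 CpGs to 61.9% in the bin from 220 to 239.

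Among the class 3 semaphorins, 2 of 7 (28.6%) had a promoter region, against 7.46% of other genes of the same CpG count. Sema3c, the ligand that draws cardiac neural crest into the outflow tract, had a narrow region of 140 bp (chr5:17080386-17080525) over exon 1 in the 5′ UTR. Its midpoint was 12 bp upstream of the nearest of the gene's TSSs, which starts a transcript annotated for nonsense-mediated decay. From the first, protein-coding TSS the midpoint was 356 bp downstream, and 4 of the 5 Sema3c TSSs had the region within 1 kb. Sema3f, a repellent that signals through Nrp2, had a region of 680 bp in intron 1 (chr9:107611766-107612445), with its midpoint 701 bp downstream of the single TSS. These 2 genes had 87 and 120 CpGs, more than each class 3 gene without a promoter region (23 to 69).

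The other class 3 genes had no region at a promoter or in the body. Sema3a, the Nrp1 ligand that patterns sympathetic nerves of the heart, was 912 kb from the nearest region, Sema3d was 1930 kb away, and Sema3e, which binds Plxnd1 without a neuropilin, was 258 kb away. All 3 genes are on chromosome 5, and their nearest region was the same one, at the Pclo promoter. Sema3b was just outside the window, 100206 bp from the region of its neighbour Sema3f. Sema3g had a region 20.7 kb past its end that lay at the promoters of Phf7 and Bap1, with its midpoint 9 bp from the Phf7 TSS.

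Of the 13 membrane semaphorins, 5 (38.5%) had a promoter region, against 23.6% of other genes of the same CpG count. Sema4c, a ligand of Plxnb2, had a region of 720 bp (chr1:36614346-36615065) that reached 5 of its 7 TSSs. Its midpoint was 303 bp upstream of the nearest one, and the region also lay at the promoter of the neighbouring gene D430040D24Rik. Sema4d, the ligand of Plxnb1 known as CD100 on immune cells, had a region of 540 bp in intron 1 (chr13:51888466-51889005), 298 bp downstream of the nearest TSS and within 1 kb of 3 of its 13 TSSs. Sema4g had a region of 520 bp (chr19:45063586-45064105) centred 64 bp downstream of a TSS, at both of its TSSs.

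Sema5b, which carries thrombospondin repeats and repels axons, had a region of 960 bp on 2 rows of the list (chr16:35541386-35542345), centred 208 bp downstream of a TSS. It also had a region deep in its first intron, described below. Sema6d had a region of 900 bp on 2 rows (chr2:124435626-124436525) that was not at its most upstream TSS. The region was 520 kb downstream of that start and centred 43 bp downstream of an inner TSS, within 1 kb of 4 of the 7 Sema6d TSSs. The inner promoter was also the one with more CpGs, 136 against 78 at the first TSS.

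The remaining membrane semaphorins had no region at a promoter. Sema6c had a region of 1020 bp over its last exon (chr3:94976626-94977645), with its midpoint 2408 bp downstream of the gene's nearest TSS. That TSS starts a transcript annotated as retaining an intron, and is 10.3 kb downstream of the first Sema6c TSS. Part of this region lay within 2 kb of it, and by this measure Sema6c was the gene closest to being counted at the promoter. Sema4a was 293 kb from the nearest region, Sema4b 144 kb, Sema4f 105 kb and Sema6b 102 kb. Sema5a was 713 kb away, Sema6a, a ligand of Plxna2 and Plxna4, was 638 kb away, and Sema7a, the GPI-anchored ligand of Plxnc1, was 139 kb away.

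Plexins had a promoter region in 5 of 7 cases (71.4%), and other genes of their high CpG count in 44.9%. Plxna2, a receptor on cardiac neural crest cells, had a region of 220 bp in intron 1 (chr1:196446586-196446805), 672 bp downstream of the TSS, which was reached at 1 of its 4 TSSs. Plxna4, a receptor on sensory and sympathetic axons, had a region of 580 bp on 2 rows (chr6:32537646-32538225), 257 bp downstream of its single TSS. The regions of Plxnb1 (220 bp, chr9:108997926-108998145) and Plxnb2 (120 bp, chr15:89011046-89011165) were narrow and close to a TSS, with midpoints 85 bp and 33 bp downstream. Plxnc1 had the widest region of all members, 1540 bp on 4 rows (chr10:94406366-94407905), over the coding exon 1 and centred 77 bp downstream of its single TSS.

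Plxna1 and Plxnd1 were the plexins without a region within 100 kb, at distances of 591 kb and 343 kb. They had 204 and 166 CpGs, more than each plexin with a promoter region other than Plxnc1 (116 to 145). Plxnd1 is the receptor of Sema3e on endothelial cells and takes part in outflow tract septation. The plexins of the X chromosome, Plxna3 and Plxnb3, are not among the 31 genes, and they were 19800 kb and 20400 kb from the nearest region.

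Nrp1, the co-receptor of Sema3a and of VEGF, had 111 CpGs and no region within 100 kb. The nearest one was 180 kb away, at the promoter of Itgb1. Nrp2 had 110 CpGs and a single region of 180 bp in the flank, 42.3 kb past the end of the gene (chr1:62907546-62907725), whose nearest protein-coding TSS was that of Nrp2 itself. Plxdc1 had regions 40.7 kb and 66.1 kb upstream of its TSS, at the promoters of Rpl19 and Stac2, and Plxdc2 was 704 kb from any region.

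Set against their known partners, ligands and receptors had promoter regions together in some cases and not in others. Sema4d and Plxnb1 both had a promoter region, as did Sema4c and Sema4g with Plxnb2. Sema6d had one where its receptor Plxna1 had none, and Plxnc1 had one where its ligand Sema7a had none. Plxna2 and Plxna4 had one where their ligand Sema6a had none, and Sema3f had one where Nrp2 had none. Sema3e and Plxnd1 both lacked one, as did Sema3a and Nrp1. Sema3c had a promoter region, and of its receptors Plxna2 had one, while Nrp1, Nrp2 and Plxnd1 had none. These pairs are a description. How often pairs of genes at large are alike in this was not computed, and no test was made on them.

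The 12 promoter regions lay at or just downstream of a TSS. In 10 of them (83.3%) the midpoint was downstream of the nearest TSS of the gene, against 67.8% of 2708 pairs of other genes and their promoter regions. An own TSS was covered by 9 of them, against 53.4% of those pairs, and the regions of Sema3f, Sema4d and Plxna2 began further downstream. Their median width was 560 bp (120 to 1540), against 420 bp (quartiles 200 to 720) for promoter regions of other genes and 500 bp for those of the highest CpG quartile. Those of Sema5b, Sema6d, Plxna4 and Plxnc1 were on more than 1 row (33.3%, against 27.1%). The 31 genes had 143 distinct TSSs, of which 29 had 1 of the 12 promoter regions within 1 kb. TSSs that lie close together share a region, and the share over the TSSs of all genes was not computed. The count of TSSs therefore describes positions only. Of the 12 genes with a promoter region, 8 also had at least 1 TSS without one.

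**Figure D3:**
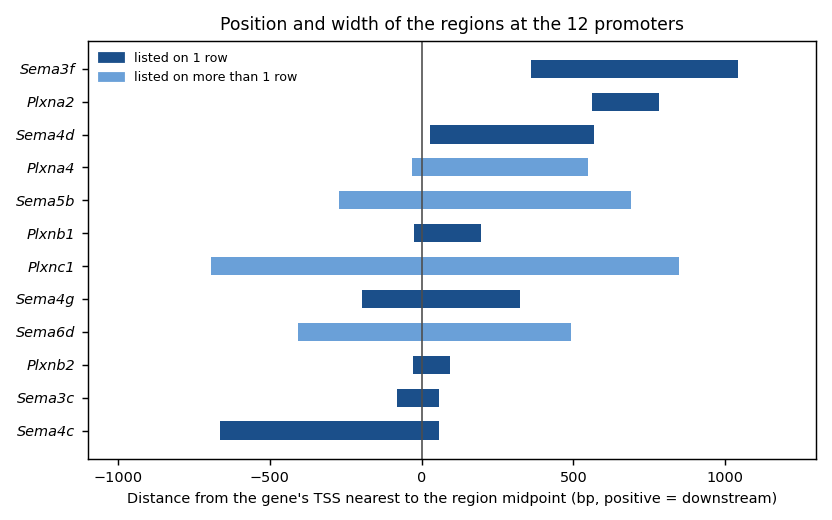
Each bar is the region at the promoter of a member, drawn to scale by its distance from the gene's TSS nearest to its midpoint (x axis, bp, positive values downstream), with regions on more than 1 row of the list in a lighter colour. The bars of Sema3f, Plxna2 and Sema4d begin downstream of the TSS, and those of Sema4c and Sema3c have their midpoint upstream of it.

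Away from promoters, 3 of the 31 genes had a region in the gene body, Sema5b, Sema6c and Plxna4. This share was 9.68% (95% Wilson interval 3.35 to 24.9), against 1.85% of all protein-coding genes and 2.92% of genes of the same CpG count. Both of these backgrounds are below the interval. The members are long genes (median 63.2 kb, against 15.4 kb for other genes), and among genes of the same CpG count and similar length the share was 5.43%, which is inside the interval. With 3 genes, the share cannot be told from this background of similar length, and an effect of gene length on it was not tested.

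The body regions of Sema5b and Plxna4 had some traits in common. That of Sema5b was 400 bp wide and lay in intron 1, 56.1 kb downstream of the first TSS (chr16:35597166-35597565). In Plxna4 the region was 300 bp wide, also in intron 1, and 57.2 kb downstream of the TSS (chr6:32480886-32481185). Both were poor in CpG, with 1.00 and 0.667 per 100 bp, and had a GC content of 49.0% and 50.7%. Low CpG is common away from promoters. Of all 963 regions at no protein-coding promoter, 50.6% had under 2 CpGs per 100 bp, and the median GC content was 55.0%. The region of Sema6c was unlike those of Sema5b and Plxna4, with 11.4 CpGs per 100 bp and a GC content of 73.4%, in the range of the promoter regions.

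Within 100 kb, 16 of the 31 genes had a region (51.6%, 95% Wilson interval 34.8 to 68.0), against 40.3% of all protein-coding genes. Genes of the same promoter CpG count had one in 55.2% of cases, so that the members were near this background. Within 50 kb the same 16 genes had a region, and the order of the shares turned, with 51.6% of members against 42.2% for the same CpG count and 28.5% of all protein-coding genes. Both backgrounds of the same CpG count are inside the interval of the members. Besides the genes with a promoter or body region, the count holds Sema3g, Nrp2 and Plxdc1, which had flanking regions only. Flanking regions were also found near Sema4c (36.6 kb past its end, at the Cnnm3 promoter), Plxnb2 (15.5 kb upstream of its TSS, at the Fam116b promoter) and Plxna2 (9.08 kb upstream of its TSS, chr1:196436866-196437025, at no other promoter). No region lay within 100 kb of more than 1 member. The 15 members without a region were 100 to 1930 kb from the nearest one, with a median of 293 kb.

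A region within 100 kb can belong to a neighbour, so that regions were also counted only where the nearest protein-coding TSS was the member's own. Of the 31 genes, 14 had such a region (45.2%, 95% Wilson interval 29.2 to 62.2), and Sema3g and Plxdc1 were lost from the count. The share was 13.3% for all protein-coding genes and 25.1% for those of the same CpG count. With background genes also alike in length it was 29.3%, just above the lower bound of the members' interval, and with background genes alike in number of neighbours 27.2%. The value of 25.1% is below that interval. That of 27.2% is also below it, but the backgrounds by length and neighbours were chosen after the data had been seen. Members have fewer neighbouring genes within 100 kb than other genes (median 2 against 4). Beyond the background alike in number of neighbours, at 27.2%, an effect of this on the share was not tested.

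The 10 body and flanking regions fell into distinct kinds. At the promoter of another protein-coding gene lay 5 of them, those near Sema3g, Sema4c, Plxnb2 and Plxdc1. The 5 others were at no protein-coding promoter, and 4 of these, in Sema5b and Plxna4, upstream of Plxna2 and downstream of Nrp2, had under 2 CpGs per 100 bp. Of all 963 regions of the list at no protein-coding promoter, 50.6% were under that value. The 12 promoter regions of the members had a median of 11.8 CpGs per 100 bp (9.26 to 16.7) and a GC content of 71.6% (68.2 to 81.4), close to the medians of 12.2 and 74.2% of other promoter regions.

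**Figure D4:**
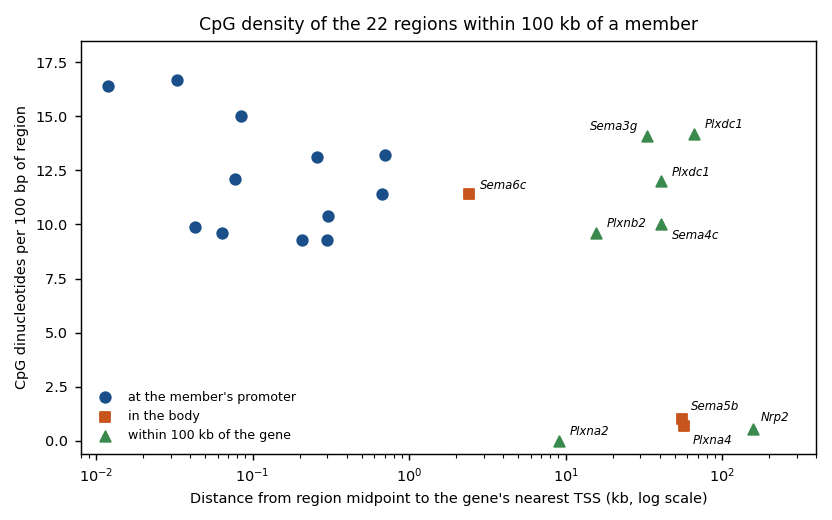
The 22 regions within 100 kb of a member are drawn by distance from their midpoint to the gene's nearest TSS (x axis, kb, log scale) and by CpG dinucleotides per 100 bp (y axis), with circles for promoter, squares for body and triangles for flanking regions. The regions of Plxna2 (upstream), Plxna4 and Sema5b (intron) and Nrp2 (downstream) lie at or below 1.00 CpG per 100 bp, and all others at 9.26 or above.

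Words of cardiac transcription factors were searched on both strands of these regions. None of the 12 promoter regions and none of the 5 regions at no protein-coding promoter held the word of GATA factors, spelled AGATAA, that of T-box factors, spelled AGGTGTGA, or that of NKX2-5, spelled TNAAGTG. In all promoter regions of the list these words were found in 4.62%, 0.637% and 6.29%, and in all regions at no protein-coding promoter in 24.5%, 1.66% and 12.3%. The GC box GGGCGG was found in 10 of the 12 promoter regions, all but those of Sema4d and Plxnb2, against 81.0% of all promoter regions. Among the 5 others it was found in that of Sema6c, against 27.9% of all regions of that kind. A match of letters is not a site, and the absence of these words says only that the letters are not in these windows.

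Partners of semaphorin signaling had shares close to those of genes of the same CpG count. Of 38 genes of co-receptors, kinases and intracellular effectors, 8 (21.1%) had a promoter region, against 22.7% of genes of the same CpG count. They were Ptk7 and Itgb1, of receptors at the cell surface, Rac1 and Rras, of small GTPases, Farp1 and Arhgef12, of guanine nucleotide exchange factors, Gsk3b, of a kinase that acts on CRMP proteins, and Cfl1, of the actin-severing cofilin. Mical3, of a family of enzymes that oxidise actin downstream of plexins, had a region in the body. It was the only 1 of 38 (2.63%), against 2.84% for the same CpG count and 1.85% of all protein-coding genes. Within 100 kb, 21 of the 38 had a region (55.3%, against 54.7% for the same CpG count).

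Other families of guidance genes gave the following shares. Of 22 Eph and ephrin genes, whose products signal between touching cells, 5 (22.7%) had a promoter region, against 23.6% for the same CpG count, and 14 (63.6%) had a region within 100 kb, against 55.8%. Of 19 Slit, Robo, netrin and netrin receptor genes, 2 (10.5%) had one at the promoter, against 22.2%, and 5 (26.3%) within 100 kb, against 52.9%. The interval of the share within 100 kb, 11.8 to 48.8%, lies below its background. A region in the body was found in 2 Eph and ephrin genes (9.09%, against 3.21% for the same CpG count) and in 2 Slit, Robo and netrin genes (10.5%, against 2.67%), shares close to the 9.68% of the semaphorin, plexin and neuropilin genes. Their body intervals were wide, 2.53 to 27.8% and 2.94 to 31.4%, and these backgrounds were not matched for gene length. The promoter intervals of the 3 families overlap, at 23.7 to 56.2% for the semaphorin, plexin and neuropilin genes, 10.1 to 43.4% for Eph and ephrin genes and 2.94 to 31.4% for Slit, Robo and netrin genes, and a difference between the families was not tested.

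**Figure D5:**
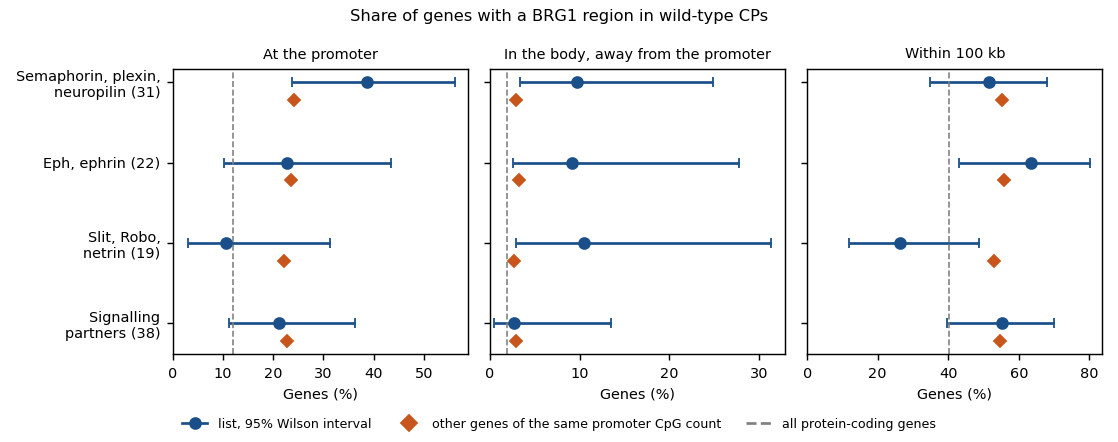
The share of genes (x axis, percent) with a BRG1 region at the promoter, in the body and within 100 kb is drawn for each list of genes (y axis) as a circle with its 95% Wilson interval, with diamonds for other genes of the same promoter CpG count and a dashed line for all protein-coding genes. At the promoter, the circle of the 31 genes is at 38.7% and its diamond at 24.1%, and the circles of Eph and ephrin genes and of partners are close to their diamonds.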

How the data were processed

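BRG1 ChIPseq of wild-type CPs was analysed from the list of regions that the authors deposited. To make it, the authors passed their reads (single-end) through fastq-mcf and mapped with Bowtie on mm9. Reads of low mapping quality were dropped, and bins above input DNA at a P-value threshold were kept. The deposited values are positions in bp, without height, P-value or any other score. Tool versions and the way in which the 2 ChIP libraries were combined are not given in the sources used here.

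Repeated rows were counted once, which left 3473 of 4791 rows. Starts were read as counted from 0 and are printed counted from 1. Positions were set against mm9 and GENCODE release M1 with samtools 1.23.1, pysam 0.24.0, pandas 2.3.3, numpy 2.4.6 and scipy 1.17.1 under Python 3.11.15, and drawn with matplotlib 3.10.9. A promoter region overlaps the window of 1 kb either side of a TSS of any transcript of the gene. CpGs were counted in this window. The background share is the mean, over members, of the share among other protein-coding genes within 5 CpGs of that member (44 to 2258 genes each). Similar length or number of neighbours means within a factor of 1.5. Wilson intervals at 95% cover counting error only. The counting was tested on simulated lists. The members and all gene lists were chosen with earlier results of these data known. All 31 members are described, with positions for those with a region at the promoter or in the body. Of the lists, 3 symbols (Mical3, Efna5 and Ntng1) stand on 2 gene identifiers each, and the longest entry was used.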

Additional observations from a re-analysis of the deposited data

How the results depend on the processing

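Of 44 alternatives, 31 moved a value by less than its interval or spread. The share of members with a promoter region was 29.0 to 41.9% over 9 of 10 of them, and 12.9% (against 7.27% for the same CpG count) where only regions on more than 1 row counted. A window of 500 bp lost Plxna2, 1 kb upstream only lost Plxna2, Sema3f and Sema4d, a minimum width of 200 bp lost Plxnb2 and Sema3c, the most upstream TSS alone lost Sema6d, and 2 kb gained Sema6c. With promoter regions kept, 41.9% had a region in the body (24.0% for the same CpG count). Within 200 kb, 71.0% had a region (70.0% for the same CpG count), and within 50 kb 51.6% (42.2%), above and not below the background. The share among genes of the same CpG count was, at the promoter, 23.2% with CpGs read at the most upstream TSS, 26.9% with gene length matched and 25.2% with neighbours matched. Of these, 23.2% is below the members' interval of 23.7 to 56.2%, and the others are inside it. In the body the share among genes of the same CpG count was 2.57% at the most upstream TSS, 3.32% within 2 CpGs and 5.43% with length. Within 100 kb it was 54.1% at the most upstream TSS, 56.5% on autosomes, 56.7% with the number of TSSs and 51.7% with neighbours. The backgrounds by length and neighbours for the count limited to a member's own TSS were chosen after the data had been seen. No paired analysis was possible because a single list of positions stands for both ChIP libraries, with no value for either, and for the same reason neither could be left out.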
